A study of Homo sapiens with 9 samples.

Results

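The mitochondrial ribosomal proteins were studied in Huh7, a human hepatocarcinoma cell line, after siRNA against enzymes of ceramide synthesis. The genes were taken as all those whose symbol in the array platform's annotation is MRPL or MRPS followed by a digit, without pseudogenes, which gave 75 of the 19775 genes measured. Each gene was represented by the probe set annotated to it alone with the highest mean log2 intensity over all 9 arrays. Of the 75 genes, 48 carry an MRPL symbol and 27 an MRPS symbol. Because MRPS18A and MRPS30 sit in the large subunit of the ribosome in spite of their names, 50 genes belong to the large and 25 to the small subunit. The probe sets for MRPS24 and for MRPL53 are annotated to a second gene as well, and these genes were not analysed here.

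Total RNA was measured on 9 single-colour Affymetrix arrays, 3 for each siRNA. The SPTLC123 group received Silencer Select siRNA against SPTLC1, 2 and 3, the subunits of serine palmitoyltransferase, the entry enzyme of the pathway. The DEGS1 group received siRNA against dihydroceramide desaturase, which makes ceramide from dihydroceramide, and the control group received Silencer Select scramble #1. All groups were transfected at 20 nM with the siLentFect lipid reagent, and the labels call the samples biological replicates of this single line. The labels place the samples at 72 h after transfection, whereas the protocol adds a conditioned low-serum medium at 72 h and harvests 24 h later.

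Mitochondria have a ribosome of their own, which translates the few proteins encoded by mitochondrial DNA, all of them core parts of the respiratory chain and ATP synthase. Its RNAs are encoded in mitochondrial DNA, but its proteins are encoded in the nucleus, made in the cytosol and imported. Many of these proteins have counterparts in the bacterial ribosome, and the others were acquired by mitochondria. Nuclear genes of this kind commonly have promoters with sites for the factors NRF1, GABP (an ETS factor) and YY1.

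A gene was called in a comparison where limma's moderated test gave an adjusted p under 0.05 over all 19775 genes. The silenced genes were low where the labels place the siRNA: SPTLC1 fell by 2.27 and SPTLC2 fell by 1.05 on the log2 scale in SPTLC123 arrays, and DEGS1 fell by 3.73 in DEGS1 arrays. SPTLC2 was dim, at a mean level of 5.83, and its dimmer probe sets gave -1.33, -1.02, -0.24 and 0.06, the last 2 not called. A probe set of SPTLC1 near background, at 4.765, was also called lower in DEGS1 arrays (-0.52, adjusted p = 0.0177 over single probe sets). All 13 hepatocyte markers were well above the median of all probe sets, with albumin (ALB) at mean log2 levels of 14.21 in SPTLC123, 14.22 in DEGS1 and 14.34 in scramble arrays. Of the 13, 5 fell after SPTLC123 siRNA, where 4.63% of all genes did, among them TTR (-1.03) and AHSG (-0.86). After DEGS1 siRNA 3 fell, where 5.04% of all genes did, TTR (-0.69), AHSG (-1.08) and APOA2 (-0.44). None was called higher after either siRNA, but FGB (0.31), APOA1 (0.22) and AMBP (0.075) had values above 0 after DEGS1 siRNA. Of 9 markers of other cell types, the endothelial PECAM1 (group means of 7.74 in SPTLC123, 7.37 in DEGS1 and 7.71 in scramble arrays) and the fibroblast COL1A1 (7.45, 7.42 and 7.66) were the brightest, and the blood cell marker PTPRC was near background (3.71, 3.59 and 3.33). CD14 was called lower after both siRNAs (-0.62 and -0.54) but was near background, with group means of 4.53, 4.61 and 5.15. PECAM1 was lower in DEGS1 than in SPTLC123 arrays (adjusted p = 0.0412). Of the hepatocyte markers, APOA1 (0.67, adjusted p = 0.00132) and FGB (0.79, adjusted p = 0.00862) were higher in DEGS1 than in SPTLC123 arrays. APOA2 (-0.33, adjusted p = 0.0302) was lower, and 11 of the 13 had differences above 0. Over all genes 3.7% were called higher and 4.96% lower in this comparison. The part of these marker differences in the results below was not tested. On 3 arrays the signal from the 5' end of control transcripts was weak: the actin 3' minus 5' difference was 1.15 for SPTLC123 replicate 3 and 1.31 and 1.25 for DEGS1 replicates 2 and 3, against 0.40 to 0.56 on the other 6 arrays. The GAPDH control set the same arrays apart, with 0.25 to 0.40 against -0.09 to 0.01 on the others. No scramble array was among them, so results are given below with and without these arrays.

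All 75 genes had mean log2 levels above the median of all probe sets, 4.86. Their levels ran from 7.78 to 11.83 with a median of 9.85. These are probe-set levels, which do not order the genes by transcript amount. The lowest levels were those of MRPL2, MRPS18A and MRPS9, and the highest those of MRPL3, MRPS15 and MRPL51. Over the 9 arrays the median gene had a range of 0.51, and 36 genes stayed within a range of 0.5. MRPS22 (small subunit) had the smallest range, 0.19, followed by MRPL19, a counterpart of bacterial L19, with 0.24. Only 5 genes had a range over 1: MRPL44, which has a ribonuclease III-like fold and lies near the exit tunnel of the nascent chain, with 1.84, MRPS14 with 1.31, MRPL15 with 1.29, MRPL42 with 1.14 and MRPS28 with 1.13. The map of all genes shows where this spread lay.

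**Figure D1:**
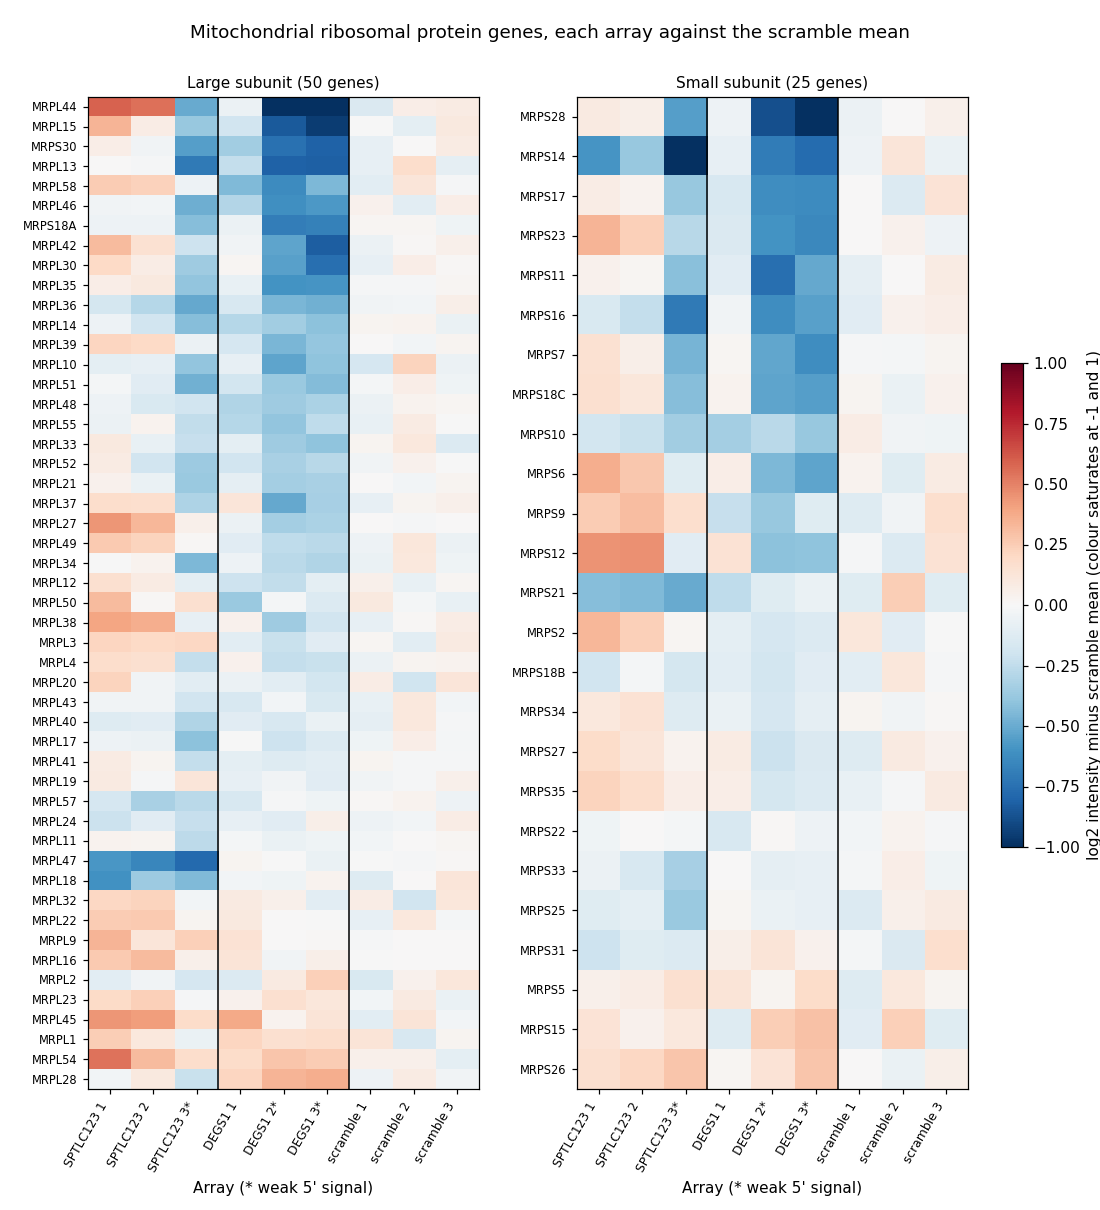
Each row is 1 of the 75 genes and each column 1 array, and the colour is the log2 intensity minus the mean of the 3 scramble arrays, cut off at -1 and 1. The lower levels in SPTLC123 replicate 3 and DEGS1 replicates 2 and 3, the arrays with weak 5' signal, are visible as 3 blue columns, and the lower MRPL47 and MRPL18 in all 3 SPTLC123 arrays as blue cells in a row.

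Many of the 75 genes were low on the same arrays. The mean deviation of the 75 genes from their 9-array means was 0.16, 0.12 and -0.15 on the log2 scale in SPTLC123 replicates 1 to 3, 0.01, -0.20 and -0.19 in DEGS1 replicates 1 to 3, and 0.04, 0.10 and 0.10 in scramble replicates 1 to 3. The 3 lowest values are those of the 3 arrays with weak 5' signal, and the 2 highest those of the other SPTLC123 arrays. Within the SPTLC123 group replicate 3 was the lowest array for 63 of 75 genes (84.0%), against 38.6% of all genes. Within the DEGS1 group replicate 1 was the highest for 54 of 75 (72.0%), against 41.0% of all genes. The mean over the 3 arrays with weak signal lay below the mean of the other 6 for 64 of the 75 genes (85.3%), against 53.7% of all genes. The part of RNA quality in this pattern was not tested. Arrays with weak 5' signal are in both knockdown groups, and the group values below include them unless stated. The median difference between weak and other arrays was -0.26 within SPTLC123 (68 of 75 below 0) and -0.12 within DEGS1 (58 of 75). It varied by gene, in the DEGS1 group from -1.11 for MRPL44 to values near 0 such as 0.02 for MRPS10, and some genes were above 0.

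**Figure D2:**
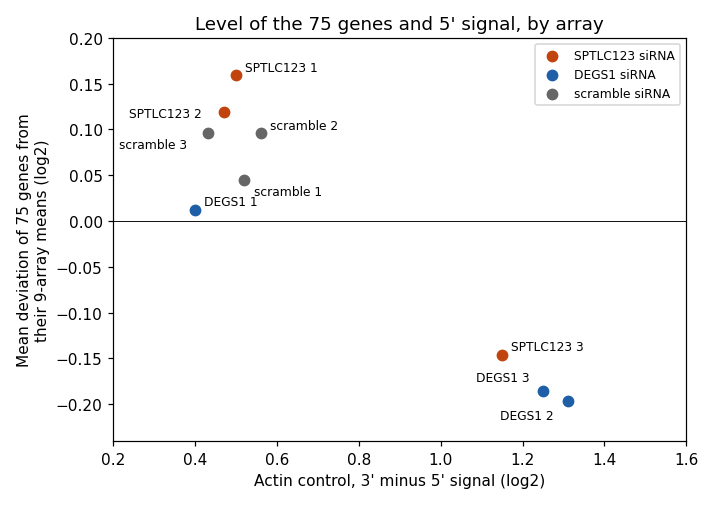
Each point is 1 array, with the 3' minus 5' log2 signal of the actin control on the x axis and the mean deviation of the 75 genes from their 9-array means on the y axis. The 3 arrays with an actin difference over 1 lie between -0.20 and -0.15, and the other 6 between 0.01 and 0.16.

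By a search over all other genes, 5 followed the mean profile of the 75 most closely over the 9 arrays. They were CHCHD2 (Pearson r = 0.986), a small mitochondrial protein, ZNF287 (0.979), CYB5R4 (0.976), a cytochrome b5 reductase, FAM204A (0.976) and PHF7 (0.973). ZNF287 and PHF7 were near background, with mean log2 levels of 4.02 and 4.97 beside the median of 4.86 for all probe sets. CHCHD2 had log2 levels of 13.29, 13.29 and 13.10 in SPTLC123, 13.24, 13.06 and 13.06 in DEGS1 and 13.23, 13.25 and 13.24 in scramble arrays. Its 3 lowest arrays were again those with weak 5' signal. These 5 were picked as the highest of all correlations, so the coefficients are descriptions over arrays that share their groups.

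Promoters are shown for 4 genes called in at least 1 comparison, the ones with the lowest adjusted p among those with an ETS motif on the shown stretch, MRPL47, MRPL58 and MRPL27, and MRPL18, called beside MRPL47 and without such a motif there. Each stretch is the 150 bases just before the annotated start, on the gene's strand and 5' to 3', from RefSeq on GRCh38.p14. Capitals mark the ETS motif CCGGAAG, which begins 39 bases before the start of MRPL47, 8 bases before that of MRPL58, and 52 and 8 bases before that of MRPL27. They lie at chr3:179604639-179604788 on the minus strand (MRPL47), chr17:75012520-75012669 on the plus strand (MRPL58), chr17:50373185-50373334 on the minus strand (MRPL27) and chr6:159789662-159789811 on the plus strand (MRPL18).
MRPL47: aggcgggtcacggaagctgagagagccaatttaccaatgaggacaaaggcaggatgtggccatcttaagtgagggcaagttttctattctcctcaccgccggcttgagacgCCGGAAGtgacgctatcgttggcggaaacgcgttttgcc
MRPL58: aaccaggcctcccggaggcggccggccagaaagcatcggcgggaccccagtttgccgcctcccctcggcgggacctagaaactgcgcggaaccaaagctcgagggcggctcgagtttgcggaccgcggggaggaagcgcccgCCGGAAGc
MRPL27: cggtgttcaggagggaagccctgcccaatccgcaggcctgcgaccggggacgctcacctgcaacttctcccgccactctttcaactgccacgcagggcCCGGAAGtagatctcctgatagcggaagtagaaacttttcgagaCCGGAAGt
MRPL18: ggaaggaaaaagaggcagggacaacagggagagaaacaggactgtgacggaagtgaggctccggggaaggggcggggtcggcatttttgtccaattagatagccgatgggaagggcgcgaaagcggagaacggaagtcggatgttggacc

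Motifs were searched on both strands of the 300 bases from 250 before to 50 after the start, which RefSeq gave for 67 of the 75 genes. The ETS motif CCGGAAG lay in 28 of the 67 promoters (41.8%), against 14.4% of the promoters of measured genes and 10.7% of all 27305. The NRF1 motif TGCGCANGC lay in 9 (13.4%), against 6.3% and 4.6%. The YY1 motif AANATGGCG lay in 17 (25.4%), against 4.9% and 3.4%, and in 14 of the 17 the match began at or after the start, where the letters ATG can be a start codon. In 0 of the 67 promoters did any pair of these motifs overlap, and overlaps were rare among all measured genes as well. Of their 15381 promoters, 3 had ETS overlapping YY1, 2 had ETS overlapping NRF1 and 0 had NRF1 overlapping YY1. Of the 13 genes called in at least 1 comparison, 7 had the ETS motif, 4 the YY1 motif and 0 the NRF1 motif. These matches describe letters and are no evidence of binding.

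After SPTLC123 siRNA few of these genes changed, and the ones that did were lower. MRPL47, MRPL18 and MRPS21, all counterparts of bacterial ribosomal proteins, fell, and no gene rose. MRPL47 (chromosome 3) is the counterpart of bacterial L29 and lies beside the exit tunnel, MRPL18 (chromosome 6) is that of bacterial L18 in the central protuberance of the large subunit, and MRPS21 (chromosome 1) is that of bacterial S21 in the small subunit. The 3 lower calls stand among 75 genes where 4.63% of all genes were called lower, and the 0 higher calls where 5.31% were called higher over the 19775 genes, so neither share stood above the background. The median change of the 75 genes was -0.05 on the log2 scale, with 41 below 0 (54.7%), against a median of -0.03 and 55.5% over all genes. In bulk RNA, less transcript per cell and fewer cells with the transcript cannot be told apart.

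MRPL47 had log2 levels of 10.79, 10.72 and 10.59 in SPTLC123 arrays, against 11.36, 11.36 and 11.39 in scramble arrays. The groups were far apart, and the change was -0.67 ± 0.09 (SE, adjusted p = 0.000684). MRPL18 had 10.47, 10.72 and 10.64 in SPTLC123 arrays, against 10.95, 11.08 and 11.20 in scramble arrays. All SPTLC123 arrays lay below all scramble arrays, with a change of -0.47 ± 0.10 (adjusted p = 0.0126). MRPS21 had 10.05, 10.04 and 9.97 in SPTLC123 arrays, against 10.36, 10.72 and 10.35 in scramble arrays. Its groups did not overlap either, scramble replicate 2 stood above the others, and the change was -0.46 ± 0.11 (adjusted p = 0.0261). DEGS1 arrays lay with scramble for MRPL47, at 11.40, 11.37 and 11.30, a difference from scramble of -0.01 ± 0.09 (adjusted p = 0.949).

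**Figure D3:**
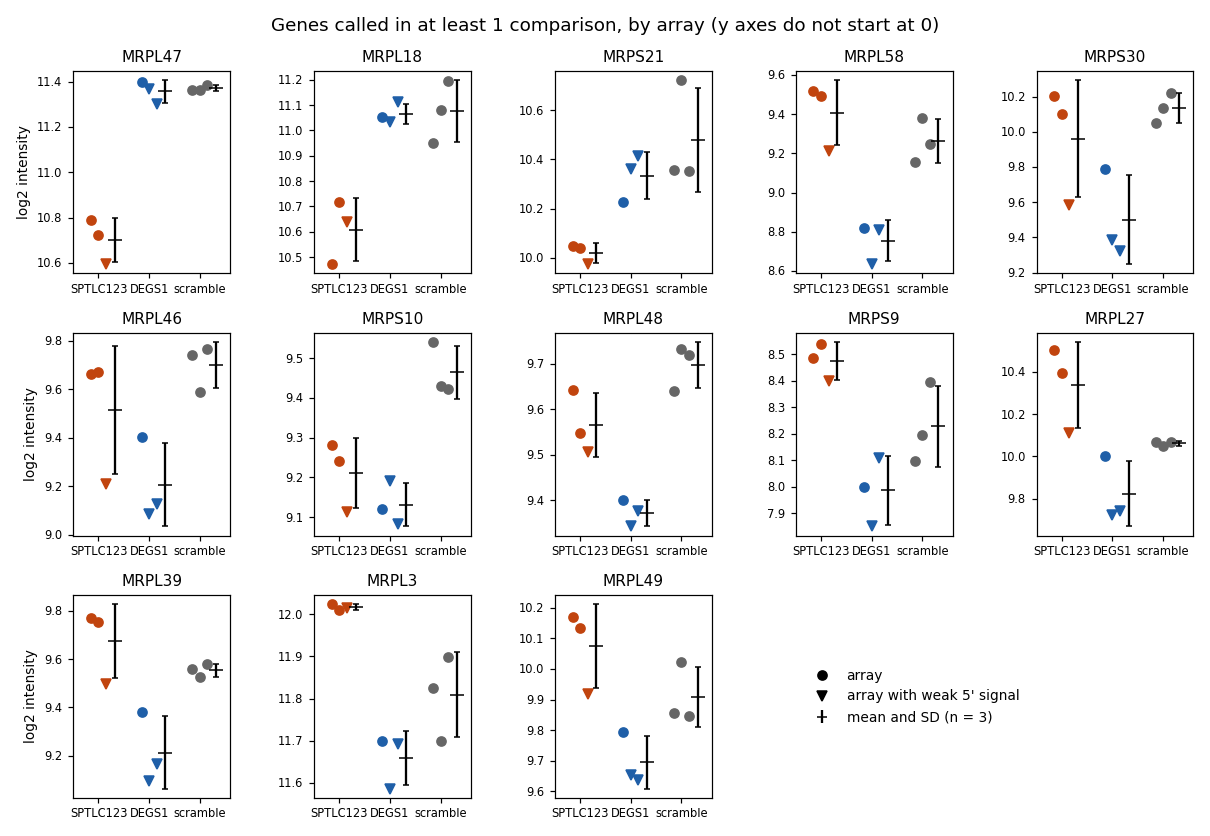
Each panel is 1 of the 13 genes called in at least 1 comparison, with log2 intensity on a y axis that does not start at 0. Points are arrays, triangles are the arrays with weak 5' signal, and bars are mean and SD of 3 arrays. For MRPL47 and MRPL18 the 3 SPTLC123 arrays stand below both other groups, and for MRPL58 the 3 DEGS1 arrays do.

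The largest lower value that missed the threshold was that of MRPS14, the counterpart of bacterial S14, with -0.72 ± 0.21 (adjusted p = 0.0592). It had log2 levels of 9.18, 9.39 and 8.58 in SPTLC123 arrays, against 9.72, 9.89 and 9.71 in scramble arrays. The groups were separate, but within SPTLC123 the array with weak 5' signal differed from the mean of the other 2 by -0.71. The largest higher values, none past the threshold, were those of MRPL54 (0.34, adjusted p = 0.0685), a protein without a bacterial counterpart, MRPL45 (0.34, adjusted p = 0.0961), which anchors the ribosome at the inner membrane, and MRPL27 (0.28, adjusted p = 0.184), the counterpart of bacterial L27 near the peptidyl transferase centre.

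Without the arrays of weak 5' signal the SPTLC123 result had both directions. SPTLC123 replicates 1 and 2 lay above the scramble mean for most genes: the median difference was 0.06, with 28 of 75 below 0 (37.3%), against 54.3% of all genes. In the fit without the 3 arrays, 4 genes were called higher, MRPL44 (0.57), MRPS12 (0.45), MRPL45 (0.43) and MRPL27 (0.39), and 3 lower, MRPL47 (-0.62), MRPL18 (-0.48) and MRPS14 (-0.48), where 7.6% of all genes were called in either direction. With the actin difference of each array as a covariate, 6 genes were called higher, these 4 with MRPL38 (0.32) and MRPS6 (0.30). In that fit 4 were lower, MRPL47, MRPL18, MRPS21 and MRPS14. Of all genes 13.9% were called there, 1511 higher and 1239 lower. MRPS12 is the counterpart of bacterial S12 of the decoding centre. MRPL47 fell in each of the 21 other settings tried, in that of single probe sets by its bright one. MRPL18 missed the threshold when SPTLC123 replicate 1 was left out (adjusted p = 0.0578) or scramble replicate 3 (0.0552), and MRPS21 did so without any 1 SPTLC123 array (0.0649 to 0.0793) or scramble replicate 2 (0.0755).

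After DEGS1 siRNA most of the genes had slightly lower values, and few were called. The median log2 change against scramble was -0.18, with 61 of 75 below 0 (81.3%), against a median of -0.01 and 53.0% over all genes. MRPL58, MRPL48, MRPS30, MRPS10 and MRPL46 fell, and none rose. The 5 lower calls stand where 5.04% of all genes were called lower, and the 0 higher calls where 4.66% were called higher. Of the 5, MRPL48, MRPL46 and MRPS30 are proteins that mitochondria acquired, MRPL48 and MRPL46 in the central protuberance. MRPL58, also known as ICT1, is a peptidyl-tRNA hydrolase built into the large subunit that frees chains from stalled ribosomes, and MRPS10 is the counterpart of bacterial S10. Both comparisons against scramble use the same 3 scramble arrays.

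MRPL58 (chromosome 17) had log2 levels of 8.82, 8.63 and 8.81 in DEGS1 arrays, against 9.16, 9.38 and 9.25 in scramble arrays. The groups did not overlap, and DEGS1 replicate 1, the array of good 5' signal, was as low as replicate 3. The change was -0.51 ± 0.11 (SE, adjusted p = 0.0161). MRPL48 (chromosome 11) had 9.40, 9.34 and 9.38 in DEGS1 arrays, against 9.64, 9.73 and 9.72 in scramble arrays, a change of -0.32 ± 0.08 (adjusted p = 0.0337). MRPS10 (chromosome 6) had 9.12, 9.19 and 9.08 in DEGS1 arrays, against 9.54, 9.43 and 9.42 in scramble arrays, a change of -0.33 ± 0.09 (adjusted p = 0.0382). For both genes the DEGS1 arrays were close together and all below scramble.

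MRPS30 (chromosome 5) had 9.79, 9.38 and 9.32 in DEGS1 arrays, against 10.05, 10.14 and 10.22 in scramble arrays, a change of -0.64 ± 0.17 (adjusted p = 0.0369). MRPL46 (chromosome 15) had 9.40, 9.09 and 9.13 in DEGS1 arrays, against 9.74, 9.59 and 9.76 in scramble arrays, a change of -0.49 ± 0.14 (adjusted p = 0.0467). The groups did not overlap for either gene, but the mean of the DEGS1 arrays with weak 5' signal differed from replicate 1 by -0.44 for MRPS30 and by -0.30 for MRPL46, and by -0.10 for MRPL58 and 0.02 for MRPS10. In SPTLC123 arrays MRPS30 stood at 10.20, 10.10 and 9.58, with the low value on the array of weak 5' signal.

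The largest lower values that missed the threshold were MRPL44 (-0.80 ± 0.32, adjusted p = 0.153), MRPL15 (-0.66 ± 0.21, adjusted p = 0.0718), the counterpart of bacterial L15, and MRPS28 (-0.66 ± 0.24, adjusted p = 0.109), a small subunit protein. MRPL44 had log2 levels of 8.65, 7.62 and 7.46 in DEGS1 arrays, against 8.56, 8.78 and 8.79 in scramble arrays. On this probe set only the 2 DEGS1 arrays with weak 5' signal were low, and replicate 1 lay within the scramble range. The same held for MRPS28, with 10.16, 9.33 and 9.17 in DEGS1 arrays, against 10.16, 10.22 and 10.27 in scramble arrays, replicate 1 being at the lower end of scramble. By a dimmer probe set of MRPL44 every DEGS1 array was below scramble, replicate 1 included. It had 6.407, 6.172 and 6.096 in DEGS1 arrays, against 6.735, 6.849 and 6.736 in scramble arrays. The largest higher values were MRPL28 (0.31, adjusted p = 0.0872), the counterpart of bacterial L28, MRPL54 (0.24, adjusted p = 0.197) and MRPL1 (0.18, adjusted p = 0.339), a protein of the L1 stalk.

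**Figure D4:**
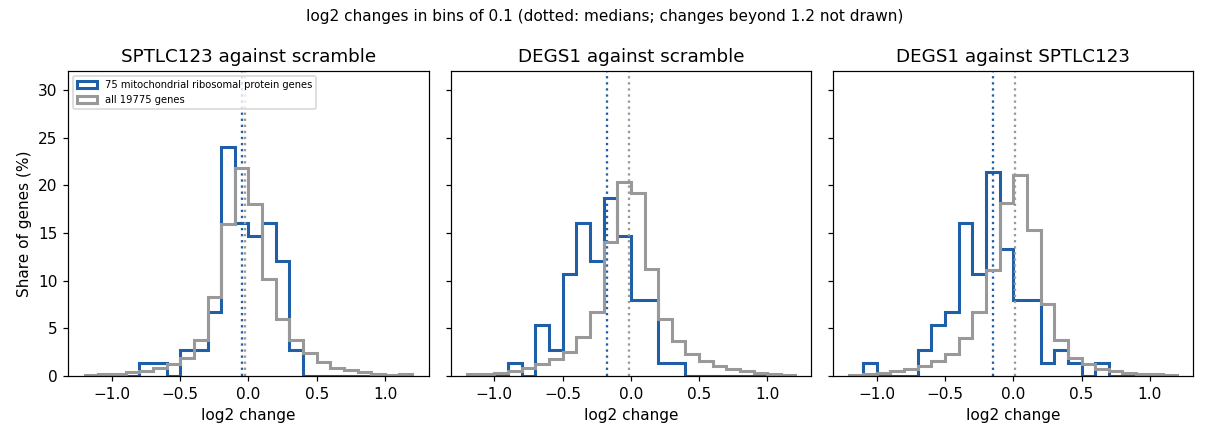
Each panel is 1 comparison, with log2 change on the x axis in bins of 0.1 and the share of genes in percent on the y axis, in blue for the 75 genes and in grey for all 19775. The dotted medians of the 75 genes are -0.05, -0.18 and -0.15, against -0.03, -0.01 and 0.01 for all genes.

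The lower values after DEGS1 siRNA were nearer to 0 on the array of good 5' signal. DEGS1 replicate 1 differed from the scramble mean by a median of -0.07, with 50 of 75 genes below 0 (66.7%), against 51.7% of all genes, and it lay below all 3 scramble arrays for 37 of 75 genes (49.3%), against 28.5% of all genes. DEGS1 replicates 2 and 3 each lay below all scramble arrays for 53 of 75 genes (70.7%), against 35.7% and 34.1% of all genes. For the called genes, replicate 1 alone differed from the scramble mean by -0.44 for MRPL58, -0.35 for MRPS30, -0.34 for MRPS10, and -0.30 for both MRPL48 and MRPL46. With the actin covariate 0 genes were called in either direction, where 5.63% of all genes were, and in the fit without the 3 arrays 0 genes, where 1.31% of all genes were. That fit keeps a single DEGS1 array, taken to vary like the other groups.

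The count of DEGS1 calls moved with single arrays, and so did that of all genes. Of all 19775 genes, 996 were called lower with all 9 arrays. When 1 array was left out this ran from 392 (without DEGS1 replicate 2) to 1936 (without DEGS1 replicate 1). Among the 75, the count was 25 lower genes without DEGS1 replicate 1, and 9 without SPTLC123 replicate 3, where 1099 of all genes were lower. It was 3 without SPTLC123 replicate 1, and 1 without SPTLC123 replicate 2, DEGS1 replicate 3 or scramble replicate 1. None of the 75 was called without DEGS1 replicate 2 or scramble replicate 2 or 3, where 392, 537 and 463 of all genes were called lower. MRPL58 lost its call without DEGS1 replicate 2 (adjusted p = 0.0773), scramble replicate 2 (0.0609) or scramble replicate 3 (0.0543). MRPL48, MRPS30, MRPS10 and MRPL46 each lost theirs without DEGS1 replicate 2 (adjusted p between 0.0841 and 0.172), DEGS1 replicate 3 (0.108 to 0.168), any 1 scramble array (0.0552 to 0.144) or SPTLC123 replicate 2 (0.0508 to 0.0572), and MRPS10 and MRPL46 also without SPTLC123 replicate 1 (0.0532 and 0.057).

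Set directly against each other, DEGS1 arrays had lower levels than SPTLC123 arrays for most of the 75 genes. The median difference was -0.15 on the log2 scale, with 58 of 75 below 0 (77.3%), against a median of 0.01 and 46.8% over all genes. MRPL47 and MRPL18 were called higher in DEGS1 arrays, where 3.7% of all genes were. MRPL58, MRPS9, MRPL27, MRPL39, MRPL3 and MRPL49 were called lower, where 4.96% of all genes were. MRPS9 and MRPL3 are counterparts of bacterial S9 and L3, while MRPL39 and MRPL49 are proteins that mitochondria acquired. Over all 3 groups, the F test called 11 genes, where 16.5% of all genes differed.

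MRPL47 was higher in DEGS1 arrays by 0.66 ± 0.09 (SE, adjusted p = 0.000958) and MRPL18 by 0.46 ± 0.10 (adjusted p = 0.0159), each with all DEGS1 arrays above all SPTLC123 arrays. MRPL58 had log2 levels of 8.82, 8.63 and 8.81 in DEGS1 arrays, against 9.52, 9.49 and 9.21 in SPTLC123 arrays, a difference of -0.65 ± 0.11 (adjusted p = 0.00428). Its DEGS1 arrays lay below both other groups. The difference was -0.49 between the arrays with weak 5' signal and -0.69 between the others.

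MRPS9 (chromosome 2) had 7.998, 7.85 and 8.11 in DEGS1 arrays, against 8.48, 8.54 and 8.40 in SPTLC123 arrays, a difference of -0.49 ± 0.11 (adjusted p = 0.0166). MRPL27 (chromosome 17) had 10.00, 9.72 and 9.74 in DEGS1 arrays, against 10.50, 10.40 and 10.11 in SPTLC123 arrays, a difference of -0.51 ± 0.12 (adjusted p = 0.0205). In both genes the knockdown groups did not overlap. Scramble arrays stood at 8.10, 8.19 and 8.40 for MRPS9, the lowest of them just below the highest DEGS1 array, and at 10.07, 10.05 and 10.07 for MRPL27, between the knockdown groups. With all 9 arrays neither gene was called against scramble in either group.

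MRPL3 (chromosome 3) had 11.70, 11.59 and 11.69 in DEGS1 arrays, against 12.02, 12.01 and 12.02 in SPTLC123 arrays, a difference of -0.36 ± 0.09 (adjusted p = 0.0279). The SPTLC123 arrays lay close together (SD 0.007), the one with weak 5' signal included. MRPL39 (chromosome 21) differed by -0.46 ± 0.11 (adjusted p = 0.0229) and MRPL49 (chromosome 11) by -0.38 ± 0.10 (adjusted p = 0.0415). For both genes the scramble mean, 9.55 for MRPL39 and 9.91 for MRPL49, lay between the means of the knockdown groups. Their scramble arrays overlapped with the SPTLC123 arrays, of which replicate 3 stood at 9.50 for MRPL39 and 9.92 for MRPL49. The largest lower values that missed the threshold were MRPL44 (-1.01 ± 0.32, adjusted p = 0.0825), MRPL15 (-0.67, adjusted p = 0.0728) and MRPS23 (-0.57, adjusted p = 0.0633), and the largest higher ones MRPL28 (0.36, adjusted p = 0.0556) and MRPS21 (0.31, adjusted p = 0.12).

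This comparison can be made among arrays of like RNA quality, but each time with a single array in one of the groups. Only a single SPTLC123 array had weak 5' signal, and only a single DEGS1 array was among the others. Between the arrays with weak 5' signal the median DEGS1 minus SPTLC123 difference was -0.07, with 43 of 75 genes below 0 (57.3%), against 47.7% of all genes. Between the others it was -0.13, with 58 below 0 (77.3%), against 47.8% of all genes. MRPL44 differed by -0.66 between the arrays with weak 5' signal and by -0.63 between the others. With the actin covariate 3 genes were called higher and 9 lower, where 10.3% of all genes were called, and in the fit without the 3 arrays 0 were called, where 1.42% of all genes were. MRPL47 and MRPL58 kept their calls whichever array was left out. The lower count lay between 1 (without SPTLC123 replicate 1 or 2, or DEGS1 replicate 2) and 20 (without DEGS1 replicate 1). It was 15 without SPTLC123 replicate 3 and 2 without DEGS1 replicate 3. Over all 19775 genes the lower count, 981, ran from 444 (without SPTLC123 replicate 1) to 1709 (without DEGS1 replicate 1). The calls of MRPL18, MRPS9, MRPL27, MRPL39, MRPL3 and MRPL49 were each lost without SPTLC123 replicate 1 (adjusted p between 0.0661 and 0.168) or DEGS1 replicate 2 (0.0514 to 0.141). All of these but MRPL18 were lost without SPTLC123 replicate 2 (0.0687 to 0.136), all but MRPS9 without DEGS1 replicate 3 (0.0686 to 0.147), that of MRPL3 without SPTLC123 replicate 3 (0.054), and that of MRPL49 without scramble replicate 1 (0.0569) or 3 (0.062).

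The 37 genes with several probe sets of their own, 140 probe sets for the 75 genes in all, did not always give 1 answer. Over single probe sets, a gene was counted where any of its probe sets was called, whereas the shares given are of probe sets. The units are unlike, since a gene with several probe sets had several chances, so the counts cannot be read as above the shares. By this count, 1 gene was called higher after SPTLC123 siRNA, where 3.45% of all probe sets were, and 3 lower, where 2.52% were. The higher one was MRPL35, the counterpart of bacterial L35: a probe set with a mean level of 7.075 changed by 0.74 (adjusted p = 0.00954), while its brightest probe set had -0.08 (adjusted p = 0.875). After DEGS1 siRNA 0 genes were called higher, where 2.62% of probe sets were, and 6 lower, where 2.54% were. These were MRPL58, MRPL48 and, each by a dimmer probe set, MRPL43 (-0.52), MRPL44 (-0.55), MRPL47 (-0.62) and MRPL50 (-0.49). Between the knockdowns 2 genes were called higher, where 2.1% of probe sets were, and 8 lower, where 2.94% were.

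MRPL47 is therefore measured unlike by its probe sets. The bright one, at a mean log2 level of 11.14, was lower in SPTLC123 arrays only, whereas the dim one, at 5.35 and near background, had 5.13, 5.00 and 4.79 in DEGS1 arrays, against 5.60, 5.43 and 5.74 in scramble arrays, a change of -0.62 (adjusted p = 0.0379). For SPTLC123 against scramble the dim one gave -0.11 (adjusted p = 0.76). With the mean of both, MRPL47 changed by -0.39 against scramble in SPTLC123 arrays (adjusted p = 0.04), and by 0.08 between DEGS1 and SPTLC123 arrays (adjusted p = 0.724), where the call was lost. For MRPS10 the other 2 probe sets gave -0.91 and -1.15 after DEGS1 siRNA (adjusted p = 0.101 and 0.0513), in the direction of the brightest, and the mean of all 3 gave -0.80 (adjusted p = 0.0368). For MRPS30 the mean of its 3 probe sets gave -0.40 (adjusted p = 0.182), and for MRPL39 the mean of its 2 gave -0.16 between the knockdowns (adjusted p = 0.219).

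The subunits had like medians. After DEGS1 siRNA 40 of 50 large subunit genes and 21 of 25 small subunit genes had a change below 0, with medians of -0.18 and -0.14, and 4 and 1 were called lower. After SPTLC123 siRNA the medians were -0.05 in both subunits, with 2 large subunit genes and 1 small subunit gene called lower. Of the 45 genes with a bacterial counterpart 3 were called lower after SPTLC123 siRNA, and of the 30 without one 0 were. After DEGS1 siRNA the counts were 1 of 45 and 4 of 30. The differences between these counts were not tested.

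MRPL46 and MRPS11, a small subunit protein, are encoded head to head, with starts 320 bases apart. MRPS11 had log2 changes of -0.12 ± 0.17 after SPTLC123 siRNA (adjusted p = 0.741) and -0.46 ± 0.17 after DEGS1 siRNA (adjusted p = 0.109), beside -0.19 and -0.49 for MRPL46. In all, 26 of the genes have a start of another gene within 1000 bases on the other strand, and 21 of them one that was measured. Of the 21 measured neighbours, 3 were called after SPTLC123 siRNA, ZNF189 and OAZ3 higher and NCAPD2 lower, where 5.31% of all genes were called higher and 4.63% lower. After DEGS1 siRNA 4 were called, ZNF189 and SARS2 higher and PTCD2 and MRPL46 itself lower, where 4.66% were called higher and 5.04% lower. ZNF189, a zinc finger gene beside MRPL50, rose by 0.88 after SPTLC123 siRNA and 0.48 after DEGS1 siRNA, while MRPL50 had values of 0.16 (adjusted p = 0.463) and -0.18 (adjusted p = 0.396). NCAPD2, a condensin subunit beside MRPL51, fell by 0.77 after SPTLC123 siRNA, while MRPL51 had -0.20 (adjusted p = 0.377).

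The other genes of mitochondrial translation that were called went in both directions. Among 15 translation factors 1 rose after each siRNA, MTRF1L, a release factor, by 0.61 ± 0.11 after SPTLC123 siRNA (adjusted p = 0.00414) and by 0.60 ± 0.11 after DEGS1 siRNA (adjusted p = 0.00528). It had 8.99, 8.91 and 9.12 in SPTLC123 arrays and 8.84, 9.06 and 9.09 in DEGS1 arrays, against 8.52, 8.31 and 8.36 in scramble arrays, and neither knockdown group overlapped with scramble. The medians of the list were 0.02 after SPTLC123 siRNA and -0.17 after DEGS1 siRNA. Of 4 ribosome proteins with other names, PTCD3, a pentatricopeptide protein of the small subunit, rose after SPTLC123 siRNA by 0.35 ± 0.09 (adjusted p = 0.0279), and none was called after DEGS1 siRNA.

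Among 27 factors of ribosome assembly and rRNA modification 4 rose and 0 fell after SPTLC123 siRNA, and 2 rose and 3 fell after DEGS1 siRNA. Over all genes 5.31% rose and 4.63% fell after SPTLC123 siRNA, and 4.66% rose and 5.04% fell after DEGS1 siRNA, and these shares apply to all counts of the gene lists here. NGRN, needed for the stability of the large subunit's 16S rRNA, rose by 0.64 ± 0.09 after SPTLC123 siRNA (adjusted p = 0.0012) and by 0.62 ± 0.09 after DEGS1 siRNA (adjusted p = 0.00189). It stood at 11.38, 11.36 and 11.27 in SPTLC123 and 11.39, 11.31 and 11.25 in DEGS1 arrays, against 10.61, 10.79 and 10.70 in scramble arrays. MRM2, an rRNA methyltransferase, rose by 0.55 after SPTLC123 siRNA and by 0.46 after DEGS1 siRNA, TRUB2, a pseudouridine synthase, rose by 0.47 after SPTLC123 siRNA, and RPUSD4, another one, fell by 0.49 after DEGS1 siRNA. The remaining calls, named after their values were seen, were TRMT61B, a methyltransferase, with 0.42 after SPTLC123 siRNA, and NSUN4, an rRNA methyltransferase, with -0.55 and FASTKD2, which binds 16S rRNA, with -0.74 after DEGS1 siRNA. NGRN, MRM2, TRUB2 and RPUSD4 were higher or lower on all arrays of the group, those with weak 5' signal included.

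Of 20 mitochondrial tRNA synthetases and amidotransferase genes, 2 rose and 1 fell after SPTLC123 siRNA and 2 rose after DEGS1 siRNA. QRSL1, a subunit of the glutamyl-tRNA amidotransferase, rose by 0.66 ± 0.14 and HARS2 by 0.44 ± 0.10 after SPTLC123 siRNA, where VARS2 fell by 0.43. SARS2 rose by 0.42 ± 0.10 after DEGS1 siRNA, as did GATC, a further subunit of the amidotransferase, by 0.48. Of 19 genes of mitochondrial DNA transcription and RNA processing, FASTKD5 rose by 0.34 and MTERF1 fell by 0.51 after SPTLC123 siRNA, and REXO2, an RNA exonuclease, fell by 0.39 after DEGS1 siRNA.

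Of 10 regulators of nuclear genes for mitochondria, 1 was called, GABPB1, the beta subunit of GABP, whose ETS-type partner subunit binds the motif marked in the promoters above. GABPB1 had log2 levels of 8.91, 8.74 and 8.88 in SPTLC123 and 8.68, 8.59 and 8.66 in DEGS1 arrays, against 9.50, 9.18 and 9.55 in scramble arrays. Both knockdown groups lay below scramble without overlap, and GABPB1 fell by 0.57 ± 0.11 after SPTLC123 siRNA (adjusted p = 0.00783) and by 0.77 ± 0.11 after DEGS1 siRNA (adjusted p = 0.00189). GABPA, the DNA-binding subunit, had log2 levels of 7.46, 7.39 and 6.27 in SPTLC123 and 7.26, 5.82 and 5.89 in DEGS1 arrays, against 6.88, 6.97 and 7.08 in scramble arrays. Its low values were those of the 3 arrays with weak 5' signal, and it was not called (adjusted p = 0.949 after SPTLC123 siRNA and 0.324 after DEGS1 siRNA). YY1 had a change of -0.32 after DEGS1 siRNA (adjusted p = 0.0577) and NRF1 one of 0.30 (adjusted p = 0.145).

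**Figure D5:**
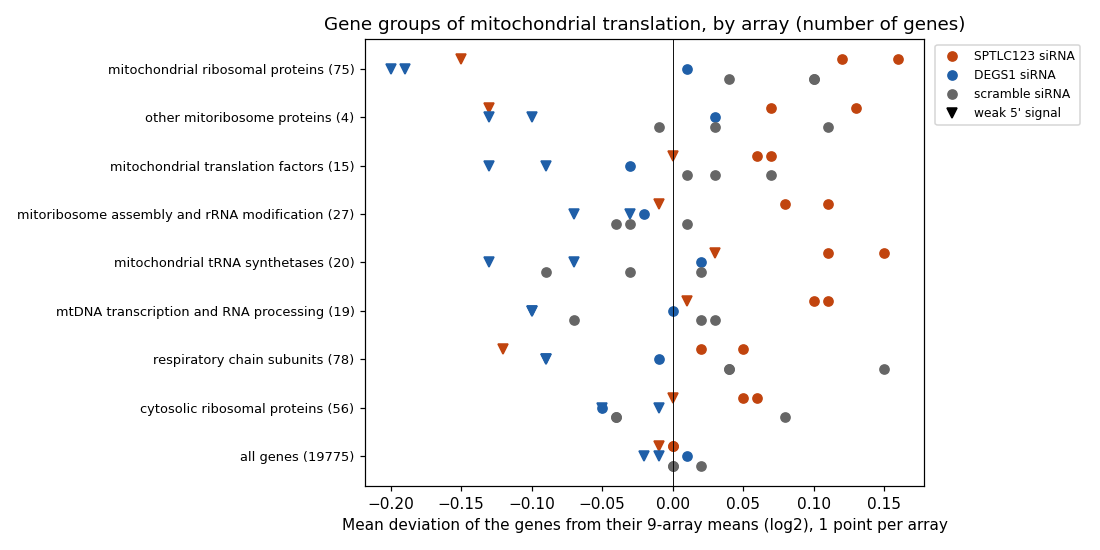
Each point is 1 array, placed by the mean deviation of a group of genes from their 9-array means on the log2 scale, with 1 row per group of genes and its number of genes in parentheses. The 75 mitochondrial ribosomal proteins run from -0.20 to 0.16, the 56 cytosolic ribosomal proteins from -0.05 to 0.08, and all genes from -0.02 to 0.02.

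For the cell's other ribosome, in the cytosol, the mean level of the protein genes was steadier over the arrays, a difference that was not tested. Changes of its single genes after DEGS1 siRNA ran from -0.91 to 0.34, beside -0.8 to 0.31 for the 75 mitochondrial ribosomal protein genes. The 56 cytosolic ribosomal protein genes had mean deviations of 0.06, 0.05 and 0.00 in SPTLC123, -0.05, -0.01 and -0.05 in DEGS1 and -0.04, 0.08 and -0.04 in scramble arrays, with no drop on the 3 arrays of weak 5' signal. Their median change was 0.04 after SPTLC123 siRNA, where RPL34 alone rose, by 0.37 ± 0.09 (adjusted p = 0.0281), and -0.02 after DEGS1 siRNA, where none was called. Between the knockdowns, however, 46 of the 56 (82.1%) were lower in DEGS1 arrays, by a median of -0.08, beside 77.3% and -0.15 for the 75 mitochondrial ribosomal protein genes. The 78 respiratory chain subunits encoded in the nucleus had -0.12 in SPTLC123 replicate 3 and -0.09 in DEGS1 replicates 2 and 3. After SPTLC123 siRNA 4 of the 78 fell, where 4.63% of all genes did, and after DEGS1 siRNA 6 did, where 5.04% of all genes did, with medians of -0.07 and -0.12. After DEGS1 siRNA 62 of the 78 (79.5%) lay below 0, close to the 81.3% of the mitochondrial ribosomal protein genes. CYC1, cytochrome c1 of complex III, fell by 0.81 ± 0.13 after DEGS1 siRNA (adjusted p = 0.0038).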

How the data were processed

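Total RNA of Huh7 cells was measured on 9 single-colour Affymetrix arrays, 3 per siRNA. The authors deposited 1 normalized intensity per probe set and array, not log-transformed. RMA, GCRMA 2.12.1 and limma 2.14.7 were used per the submitters' processing notes, and whether RMA or GCRMA made the values is not given in the sources used here. The array medians of the 54675 probe sets lay between 27.92 and 30.0, so the table was not normalized again. With no read depth on arrays, precision is limited by signal over background and by 3 arrays per group.

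Values were log2-transformed with no pseudocount. The 41091 probe sets with 1 gene in the platform annotation gave 19775 genes, each by its brightest probe set over all 9 arrays, and all 75 mitochondrial ribosomal protein genes matched RefSeq (GRCh38.p14) with no change of symbol. Group means were fitted over the 9 arrays by lmFit and eBayes (limma 3.58.1, R 4.3.3), which left 6 residual degrees of freedom. Two-sided p-values received Benjamini-Hochberg adjustment over all genes, and called means an adjusted p under 0.05. Values after ± are the SE of the fit for changes. The fit was tested on simulated data.

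The genes and gene lists, the tests and the alternatives were chosen with earlier results of these data known, so no list is independent evidence. Named were all called genes of the 75, the 3 largest differences each way per comparison, the 3 highest and lowest levels, genes whose probe sets disagree in their calls, up to 4 genes per other list by adjusted p, and the 5 genes most correlated with the mean profile. Pairs of genes with neighbouring starts were looked at after the values were seen. Alternatives were single probe sets, probe sets averaged per gene, dim genes left out, median centring, quantile normalization, robust eBayes with a variance trend, fits of the 2 groups compared, array weights, a block for the replicate number, a threshold of 0.01, the actin 3' minus 5' difference as a covariate, and leaving out each array or the 3 with weak 5' signal. SPTLC3 was not analysed here.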

Additional observations from a re-analysis of the deposited data

How the results depend on the processing

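The changes of the called genes kept their sign under all alternatives. At the threshold of 0.01 and over single probe sets, where the brightest was taken, the change is the main one and its sign could not turn. Dimmer probe sets near background did turn it between the knockdowns. That of MRPL47 gave -0.505 (bright one 0.656), and that of MRPL39 gave 0.134 (bright one -0.459). The median change of the 75 genes after SPTLC123 siRNA, -0.05, turned to 0.05 with the actin covariate and 0.06 without the 3 arrays of weak 5' signal. After DEGS1 siRNA the median, -0.177, became -0.135 with quantile normalization, -0.196 with median centring and -0.07 with the actin covariate. Between the knockdowns the median, -0.149, became -0.073, -0.207 and -0.091 in the same settings. The higher count after SPTLC123 siRNA, 0, became 1 over single probe sets, 2 with array weights, 6 with the actin covariate and 4 without the 3 arrays of weak 5' signal, and 0 to 1 when 1 array was left out. The lower count, 3, became 1 at a threshold of 0.01 and 5 with quantile normalization, and 1 to 4 when 1 array was left out (1 without SPTLC123 replicate 1). After DEGS1 siRNA the higher count, 0, became 1 with array weights and stayed at 0 when 1 array was left out. The lower count, 5, became 0 at a threshold of 0.01, 3 with probe sets averaged per gene, quantile normalization or the fit of 2 groups, 28 with array weights, and 0 with the covariate or without the 3 arrays, and it ran from 0 to 25 when 1 array was left out. Between the knockdowns the higher count, 2, became 1 at 0.01 or with averaged probe sets, 3 with dim genes left out, quantile normalization or the covariate, 4 with array weights and 0 without the 3 arrays, and 1 to 3 when 1 array was left out. The lower count, 6, became 1 at 0.01, 3 in the fit of 2 groups, 4 with quantile normalization, 27 with array weights, 9 with the covariate and 0 without the 3 arrays, and 1 to 20 when 1 array was left out. The count over the 3 groups, 11, became 2 at 0.01 or without the 3 arrays, 7 with median centring, 8 over single probe sets and 38 with array weights, and 2 to 29 when 1 array was left out. The counts over all 19775 genes moved as well. With array weights 2259 were called lower after DEGS1 siRNA and 2230 between the knockdowns, beside 996 and 981 in the main fit. A stricter threshold leaves fewer calls by construction, and the cause of the other moves was not tested.

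With the replicate number as a replicate block the lower counts were 4 after SPTLC123 siRNA, 7 after DEGS1 siRNA and 9 between the knockdowns. The numbers were not taken as pairs, since the deviations of arrays with the same number correlated between -0.28 and 0.54, and not every array correlated best with its own number. For each of 16 pairs of a called gene and a comparison, 21 alternatives were tried. Of the values, 224 kept their call, 112 lost it and 0 turned their sign. The count of 0 includes alternatives that keep the main change by construction, such as the stricter threshold and single probe sets. No sign could turn there. Dimmer probe sets were not counted alone, and those of MRPL47 and MRPL39 had the opposite sign between the knockdowns.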
